A study of Mus musculus with 199 samples.

Results

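The transcripts described here are 43 genes of the interferon response: the interferon receptors, the transcription factors that carry the signal, and genes that interferon induces. They were taken by gene symbol from the 31581 mouse genes of the deposited count table, and all 43 were found there. The tumour cells are KP1, a line explanted from a mouse small-cell lung cancer lacking both alleles of Rb1 and Trp53. KP1 cells were profiled as cultured spheroids, as liver colonies in nude mice, which are immunocompromised, and as liver colonies in F1 mice, which are immunocompetent. RPC cells, explanted pre-cancerous cells with the genotype Rb1-/-Trp53-/-p130-/+Crebbp-/-, were profiled as spheroids. Each small library was made from poly(A) RNA of about 10 cells cut out of a frozen section with a laser and amplified by PCR. There were 28 such 10-cell libraries of KP1 spheroids, 33 of nude liver colonies, 31 of F1 liver colonies and 24 of RPC spheroids. Pooled material split into small libraries, which measures the spread of the method, gave 20 libraries of KP1 spheroids, 35 of nude liver and 24 of F1 liver. Bulk libraries, 1 each, came from spheroids of KP1 and of 3 further lines with the same Rb1 and Trp53 losses: KP2 with Ptch1+/lacz, KP3 with Axin2+/lacz and KP5 with BAT-GAL. All groups therefore lack Rb1 and Trp53. The labels do not say how many mice or cultures gave the captures, so the tests measure the spread between captures, and the nude and F1 hosts may also differ in genetic background.

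Type I interferons act through the receptor chains Ifnar1 and Ifnar2 and type II interferon through Ifngr1 and Ifngr2. The receptors activate STAT proteins, which with Irf9 bind the interferon-stimulated response element, ISRE, in the promoters of genes such as Isg15, the Ifit and Oas families and Mx1. In tumours in the liver such genes are known to respond to interferon made by immune cells, and several also have a basal level without any interferon.

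The promoters of Isg15, Ddx58, Ifitm2 and Ifitm3 are shown because Isg15 is a widely used reporter of the response and the others changed between the groups below. Each run covers 100 bases before to 30 bases after the RefSeq transcription start on GRCm38.p6, 5′ to 3′ on the gene's strand, with letters that match the ISRE pattern in capitals. The pattern searched was GAAA, any 2 bases and GAAA again, on either strand, where the other strand reads TTTC, any 2 bases and TTTC. The Isg15 window is chr4:156200789-156200918, that of Ddx58 chr4:40239796-40239925, that of Ifitm2 chr7:140955932-140956061 and that of Ifitm3 chr7:141010715-141010844, all on the minus strand.
Isg15: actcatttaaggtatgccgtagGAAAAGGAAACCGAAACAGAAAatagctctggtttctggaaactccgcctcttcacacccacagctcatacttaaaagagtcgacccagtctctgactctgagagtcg
Ddx58: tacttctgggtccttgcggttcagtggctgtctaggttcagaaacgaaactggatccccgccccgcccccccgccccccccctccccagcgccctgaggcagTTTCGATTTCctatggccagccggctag
Ifitm2: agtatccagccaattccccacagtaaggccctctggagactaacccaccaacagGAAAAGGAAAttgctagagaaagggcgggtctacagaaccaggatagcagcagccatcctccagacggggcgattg
Ifitm3: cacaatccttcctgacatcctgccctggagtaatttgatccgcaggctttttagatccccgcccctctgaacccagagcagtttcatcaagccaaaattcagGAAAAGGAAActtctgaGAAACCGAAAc
The ISRE pattern was present in the 300-base promoter of 19 of the 37 listed genes with a RefSeq promoter, and in 3.99% of all 27025 genes with one. The pattern TTCNNNGAA, the palindromic core of the STAT-binding GAS element, was present in 14 of the 37 and in 9.55% of all genes. Matches of the 2 patterns can overlap, as they do in Ifitm3. A match is a description of the letters in this window.

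Depth was the total count over genes. It ranged from 3775230 to 5308790 in KP1 spheroid 10-cell libraries, from 718208 to 4239790 in nude liver, from 1646400 to 5432860 in F1 liver and from 3485530 to 7557770 in RPC libraries. Library 30 of the nude liver group stood apart with the lowest total and 31.8% of its counts on ERCC spike-in RNA. Among nude liver pools the ERCC share also reached 31.2%, against a median of 5.94%. Neuroendocrine genes, which mark the tumour cells, were present in every group, with median summed levels of 1945 CPM (counts scaled to a common library total of 1e6) in KP1 spheroids, 1289 in nude liver, 1511 in F1 liver and 1269 in RPC libraries. Summed hepatocyte genes had medians of 1.11, 835 and 185 CPM in KP1 spheroids, nude liver and F1 liver. Erythrocyte genes, the globins among them, had medians of 0, 551 and 1622 CPM, with a highest library of 32920.5 CPM in F1 liver, and all 4 globin genes tested were called higher in F1 than in nude liver 10-cell libraries by edgeR; their part in the liver and host differences below was not tested. Summed macrophage and Kupffer genes had medians of 13.6, 50.2 and 107 CPM in these groups, with 12 of the 14 genes, C1qa and Lyz2 among them, at 0 in all KP1 spheroid 10-cell libraries. Before thinning, 2, 4 and 1 of the 14 genes were counted in at least 50% of the libraries of these groups. Clec4f and Marco were at 0 in all F1 liver 10-cell libraries, and Adgre1 in all those of nude liver. T and NK cell genes had medians of 0, 0.407 and 0.218 CPM, with a highest library of 106 CPM in F1 liver. Each capture is a small mixture, so fewer cells of a type and less RNA per cell cannot be told apart.

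Most of the 43 genes were rare in every environment, and fewer libraries held them in F1 than in nude liver, as for genes of any kind. At equal depth 30 of the 35 tested were counted in a smaller share of F1 than of nude liver 10-cell libraries, and so were 67.2% of all 15117 genes tested. The median over genes of the group mean was 0.817 CPM in KP1 spheroids, 1.52 in nude liver, 1.44 in F1 liver and 0.905 in RPC spheroids. The mean was under 1 CPM for 22, 17, 20 and 23 of the 43 genes in these groups. A count in at least 50% of the libraries was found for 16, 15, 10 and 16 genes. A mean of 20 CPM or more was reached by 4, 5, 4 and 4 genes. After every small library was thinned at random to 718149 counts, a median of 11.5 of the 43 genes was counted per KP1 spheroid library, 12 per nude liver library, 9 per F1 liver library and 12.5 per RPC library. All genes counted at that depth had medians of 8081, 8354, 7193 and 9192.5 in the same order, so F1 libraries held the fewest genes of any kind. The interferon genes themselves were not counted at this depth: the 20 type I, II and III interferon genes had no count in any KP1 group, which allows at most 0.024 CPM per gene over the KP1 spheroid 10-cell libraries (3 counts over the group's total, counting error only), and 1 count in all in RPC libraries.

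**Figure D1:**
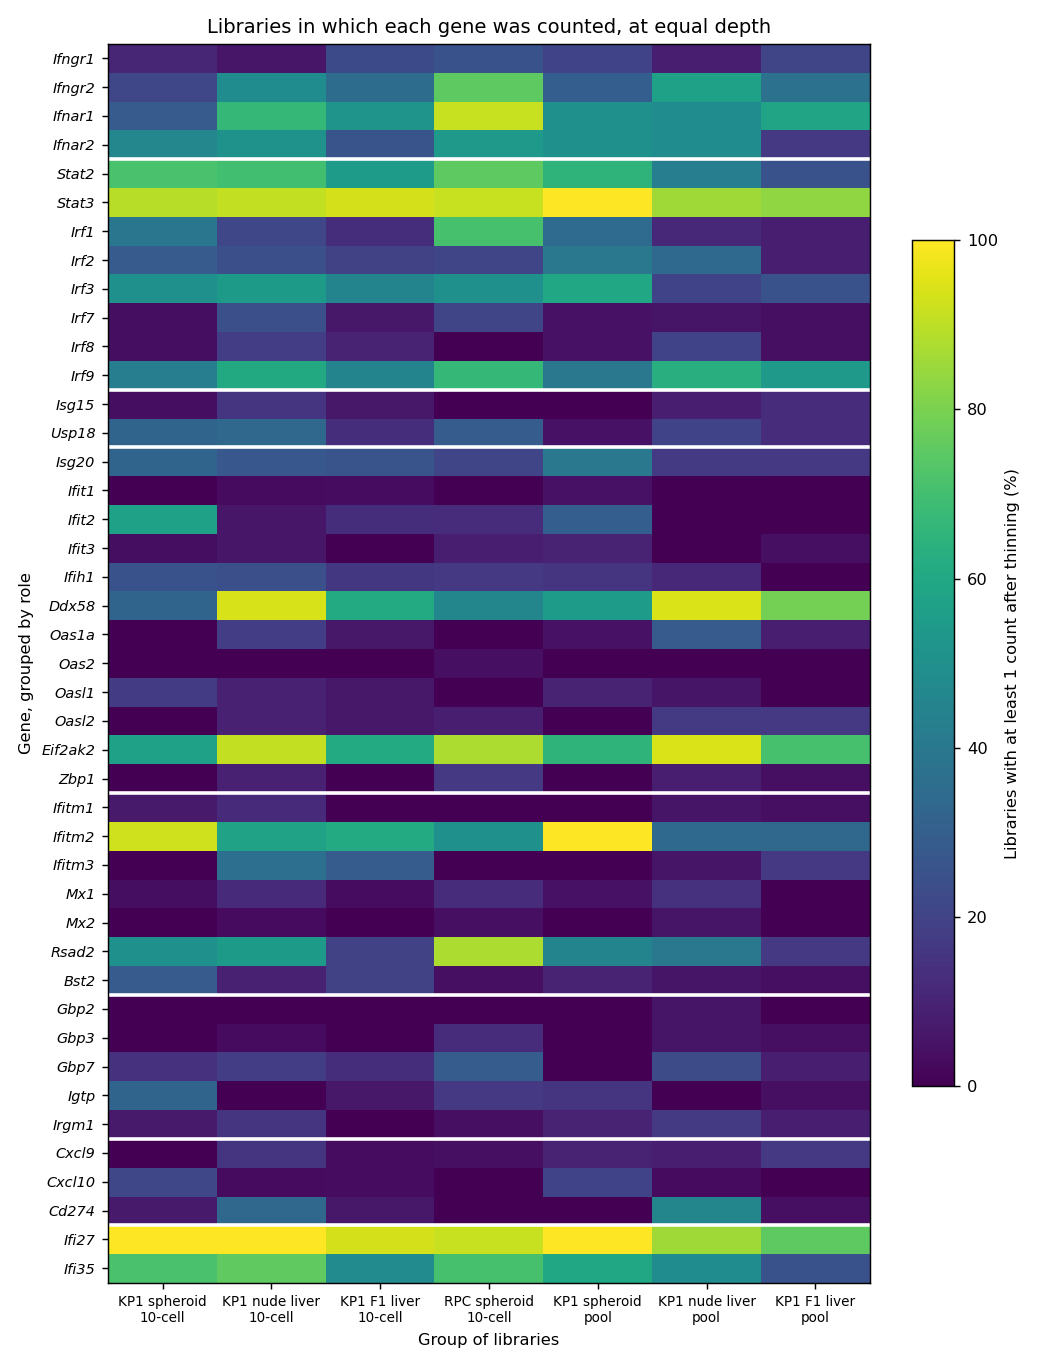
Share of libraries with at least 1 count after thinning to 718149 counts, for each of the 43 genes (rows, grouped by role, white lines between roles) in 7 groups of libraries (columns). Stat3 and Ifi27 are bright throughout, Ddx58 and Ifitm2 change between environments, and the Oas2, Ifit1 and Gbp2 rows stay dark.

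**Figure D2:**
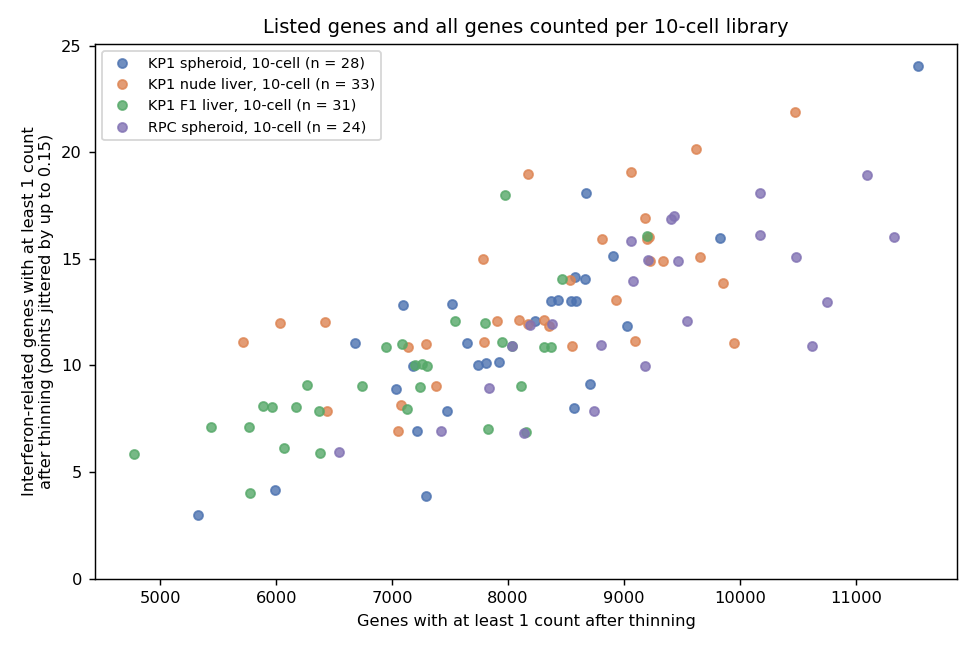
Number of the 43 genes with a count (vertical axis) against the number of all genes with a count (horizontal axis) in each 10-cell library after thinning, 1 point per library. Libraries with more genes of any kind also held more of the 43, and F1 liver libraries lie towards the lower left.

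The receptors were low in KP1 captures, and Ifngr2 and Ifnar1 stood higher in RPC cells. Ifngr2, the signalling chain of the type II receptor at chr16:91547072-91565169 (GRCm38), had a lowest, median and highest level of 0, 0 and 9.08 CPM in KP1 spheroids and of 0, 3.56 and 33.3 CPM in RPC spheroids. The distributions overlapped, and the RPC median lay above the KP1 median. Ifngr2 was counted at equal depth in 18 of 24 RPC and 6 of 28 KP1 libraries (Fisher's exact test, two-sided, adjusted p = 0.00509). Its mean was 2.91 higher in RPC cells on the log2 scale (SE 0.69, edgeR quasi-likelihood adjusted p = 0.00117, n = 24 and 28), in a gene that was under the filter on low counts in all 3 KP1 comparisons of 10-cell libraries and, without its highest RPC library, in this one. Ifnar1, the first chain of the type I receptor at chr16:91485238-91507441, was counted in 22 of 24 RPC and 8 of 28 KP1 spheroid libraries (Fisher's exact test, adjusted p = 0.000192). Its median was 8.55 CPM in RPC and 0.384 CPM in KP1 spheroids, and its mean differed by 1.69 (SE 0.67, edgeR adjusted p = 0.0577, and 0.019 with DESeq2). Ifnar1 was also counted in more nude liver libraries, 22 of 33, than spheroid libraries (Fisher's exact test, adjusted p = 0.0371). That call was lost without thinning (adjusted p = 0.693) and with at least 3 counts required (adjusted p = 0.511, Fisher's exact test). In F1 liver it was counted in 16 of 31. Ifngr1 was counted at equal depth in 3 of 28 KP1 spheroid, 2 of 33 nude liver, 7 of 31 F1 liver and 6 of 24 RPC libraries, and Ifnar2 in 13, 17, 8 and 13 of them.

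In bulk KP1 spheroids the receptors were not rare. Ifnar1 stood at 67.6 CPM, Ifngr1 at 17.3, Ifnar2 at 10.2 and Ifngr2 at 9.44 CPM, and the other 3 lines gave 56.1 to 74.1 CPM for Ifnar1. These libraries were prepared by another protocol from bulk RNA and have 1 library per line, so levels are given side by side with no test. Counts were found for 41, 41, 37 and 38 of the 43 genes in KP1, KP2, KP3 and KP5, and 27, 20, 26 and 20 reached 1 CPM.

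Among the transcription factors, Stat3 was the most widely counted, and its host difference did not pass the test. Stat3, which transmits cytokine signals, had medians of 25.8, 28.4 and 12.6 CPM in KP1 spheroids, nude liver and F1 liver, with highest libraries of 138, 258 and 208 CPM. F1 liver differed from nude liver by -0.13 (SE 0.54, edgeR adjusted p = 0.895). Stat2, a partner of Irf9 in the type I response, had medians of 6.24, 7.63 and 2.18 CPM and did not pass the test in any comparison of means. Irf3, an activator downstream of viral RNA sensing, had medians of 1.05, 1.67 and 0 CPM, but 3 F1 libraries reached 153, 166 and 230 CPM. Its F1 minus spheroid difference was 2.40 (SE 0.97, edgeR adjusted p = 0.0905). Irf7, the factor that amplifies type I interferon, was counted at equal depth in 1 of 28 spheroid, 8 of 33 nude liver and 2 of 31 F1 liver libraries, and Irf8 in 1, 6 and 3. Irf1 was counted in 11, 7 and 4 of these and in 17 of 24 RPC libraries, without passing the test. Irf2, a repressor of Irf1 targets, was counted in 8, 8 and 6 and Irf9 in 12, 20 and 14 of the KP1 spheroid, nude liver and F1 liver libraries, with no call between these groups.

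The modifier Isg15 had a median of 0 CPM in every small-library group. It was counted before thinning in 2 of 28 spheroid, 10 of 33 nude liver and 3 of 31 F1 liver libraries, with highest levels of 0.242, 5.16 and 43.1 CPM. A single F1 pool reached 197 CPM, which was 97.2% of the summed Isg15 level of that group. Usp18, which removes Isg15 from proteins, was counted at equal depth in 9, 11 and 4 libraries of the same groups.

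The clearest change among the RNA sensors was a rise of Ddx58 in liver colonies of nude mice. Ddx58 encodes RIG-I, which detects viral RNA, and lies at chr4:40203773-40239828. Its lowest, median and highest levels were 0, 0.583 and 2.60 CPM in KP1 spheroid 10-cell libraries, 0.178, 4.44 and 886 CPM in nude liver, and 0, 1.74 and 23.5 CPM in F1 liver. The nude liver libraries lay mostly above the spheroid libraries, with F1 liver between them, and all 3 groups overlapped. Ddx58 was 5.58 higher in nude liver than in spheroids (SE 0.78, edgeR adjusted p = 2.34e-08, n = 33 and 28). Without the library at 886 CPM the difference was 3.44 (SE 0.53, edgeR adjusted p = 3.11e-07). At equal depth it was counted in 31 of 33 nude liver and 9 of 28 spheroid libraries (Fisher's exact test, adjusted p = 3.79e-05).

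The pools showed the same direction for Ddx58. They are splits of pooled material, so every p-value on pools here sets a difference against the noise of splitting and amplification and not against differences between captures, cultures or mice. Its medians were 0.773 CPM in spheroid pools, 6.57 in nude liver pools and 3.59 in F1 liver pools, with highest values of 14.6, 197 and 63.5 CPM. Nude liver pools were 3.02 higher (SE 0.63, edgeR adjusted p = 0.000145) and F1 liver pools 2.51 higher (SE 0.67, edgeR adjusted p = 0.00813) than spheroid pools. Both comparisons use the same spheroid pools. With only the 6 spheroid pools that hold at least 0.1% ERCC counts the differences were 2.66 for nude liver (edgeR adjusted p = 0.11) and 2.18 for F1 liver (adjusted p = 0.57), and neither was called. With a hepatocyte marker score as a covariate the nude liver difference was 0.86 in 10-cell libraries (edgeR adjusted p = 0.724) and 1.92 in pools (adjusted p = 0.448), while that of F1 pools was 2.99 (adjusted p = 0.00414). The summed hepatocyte genes ranged from 0 to 83.6 CPM in spheroid and from 33.4 to 4213 CPM in nude liver 10-cell libraries, so hepatocyte RNA and the liver site cannot be told apart there.

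Between the hosts, Ddx58 was lower in F1 than in nude liver 10-cell libraries by -3.43 (SE 0.70, edgeR adjusted p = 0.000157, n = 31 and 33). The edgeR call was lost without the nude liver library at 886 CPM, where the difference was -1.25 (SE 0.48, edgeR adjusted p = 0.0605). With that library in, the difference was also called by DESeq2 and limma-voom, and not with the replicate block. Within the F1 libraries high in the pseudogene Rpl19-ps11 it was -3.13 (edgeR adjusted p = 0.00104) and within the 5 low in it -5.45 (edgeR adjusted p = 0.104, a model fitted across all genes). With the hepatocyte score as covariate it was -2.45 (edgeR adjusted p = 0.078), and the summed hepatocyte genes had medians of 835 CPM in nude and 185 CPM in F1 liver. At equal depth Ddx58 was counted in 19 of 31 F1 and 31 of 33 nude liver libraries (Fisher's exact test, adjusted p = 0.0419), and with only the 26 F1 libraries high in Rpl19-ps11 the adjusted p was 0.0551. The share of F1 libraries with a count was lower by 32.6 percentage points at equal depth, by 16.1 without thinning (Fisher's exact test, adjusted p = 0.221) and by 34.4 with at least 3 counts (adjusted p = 0.106), so that the call was lost in both. Against the 9 of 28 spheroid libraries the F1 share did not pass the test (Fisher's exact test, adjusted p = 0.232), and with at least 3 counts it did (adjusted p = 0.0254). The mean of Ddx58 in that comparison was under the filter on low counts. In pools the host difference was -0.49 (SE 0.50, edgeR adjusted p = 0.555).

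Other RNA-directed effectors moved in both directions. Eif2ak2, the kinase PKR that stops translation on viral RNA, was counted in 30 of 33 nude liver and 16 of 28 spheroid libraries (Fisher's exact test, adjusted p = 0.0272, and 0.162 without thinning), with medians of 9.25 and 1.56 CPM, and in 19 of 31 F1 libraries with a median of 2.73 CPM. Its mean did not pass the edgeR test in this comparison (difference 0.59, SE 0.70, adjusted p = 0.553), in which single libraries reached 352 and 302 CPM. DESeq2 gave 2.08 there (adjusted p = 0.000467), and limma-voom, the replicate block and the spheroid libraries under 0.1% ERCC also gave a call. In nude liver against spheroid pools the difference was 1.87 (SE 0.86, edgeR adjusted p = 0.104). DESeq2, limma-voom and the spheroid pools under 0.1% ERCC gave a call there. In RPC spheroids Eif2ak2 was counted in 21 of 24 libraries (Fisher's exact test against KP1 spheroids, adjusted p = 0.163). Its mean differed there by 0.43 (SE 0.74, edgeR adjusted p = 0.728), and by 2.56 with DESeq2 (adjusted p = 8.77e-05). Ifit2, an RNA-binding inhibitor of translation at chr19:34550694-34576419, was rarer in both liver sites than in KP1 spheroids. It had a lowest, median and highest level of 0, 2.07 and 17.9 CPM in spheroids, 0, 0 and 4.30 CPM in nude liver and 0, 0 and 6.04 CPM in F1 liver. It was counted in 16 of 28 spheroid, 2 of 33 nude liver and 4 of 31 F1 liver libraries (Fisher's exact test, adjusted p = 0.000575 for nude and 0.0227 for F1), and in 3 of 24 RPC libraries (adjusted p = 0.0194). None of the 35 nude liver pools had a count. With at least 3 counts required, none of these 3 Ifit2 calls held (adjusted p = 0.394, 0.525 and 0.692). Ifit1 was counted at equal depth in 0, 1 and 1 libraries of the KP1 spheroid, nude liver and F1 liver groups and Ifit3 in 1, 2 and 0. Oas2, an enzyme activated by double-stranded RNA, had no count in any KP1 library of these 3 groups or their pools. Zbp1, a sensor of Z-form nucleic acid, was counted in 3 nude liver and no F1 liver or KP1 spheroid 10-cell libraries, and Oas1a in 6, 2 and 0. The RNA sensor Ifih1 (MDA5) was counted in 7, 8 and 5 libraries of KP1 spheroids, nude liver and F1 liver, Isg20 in 9, 9 and 8, Oasl1 in 5, 3 and 2 and Oasl2 in 0, 3 and 2, with no call.

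**Figure D3:**
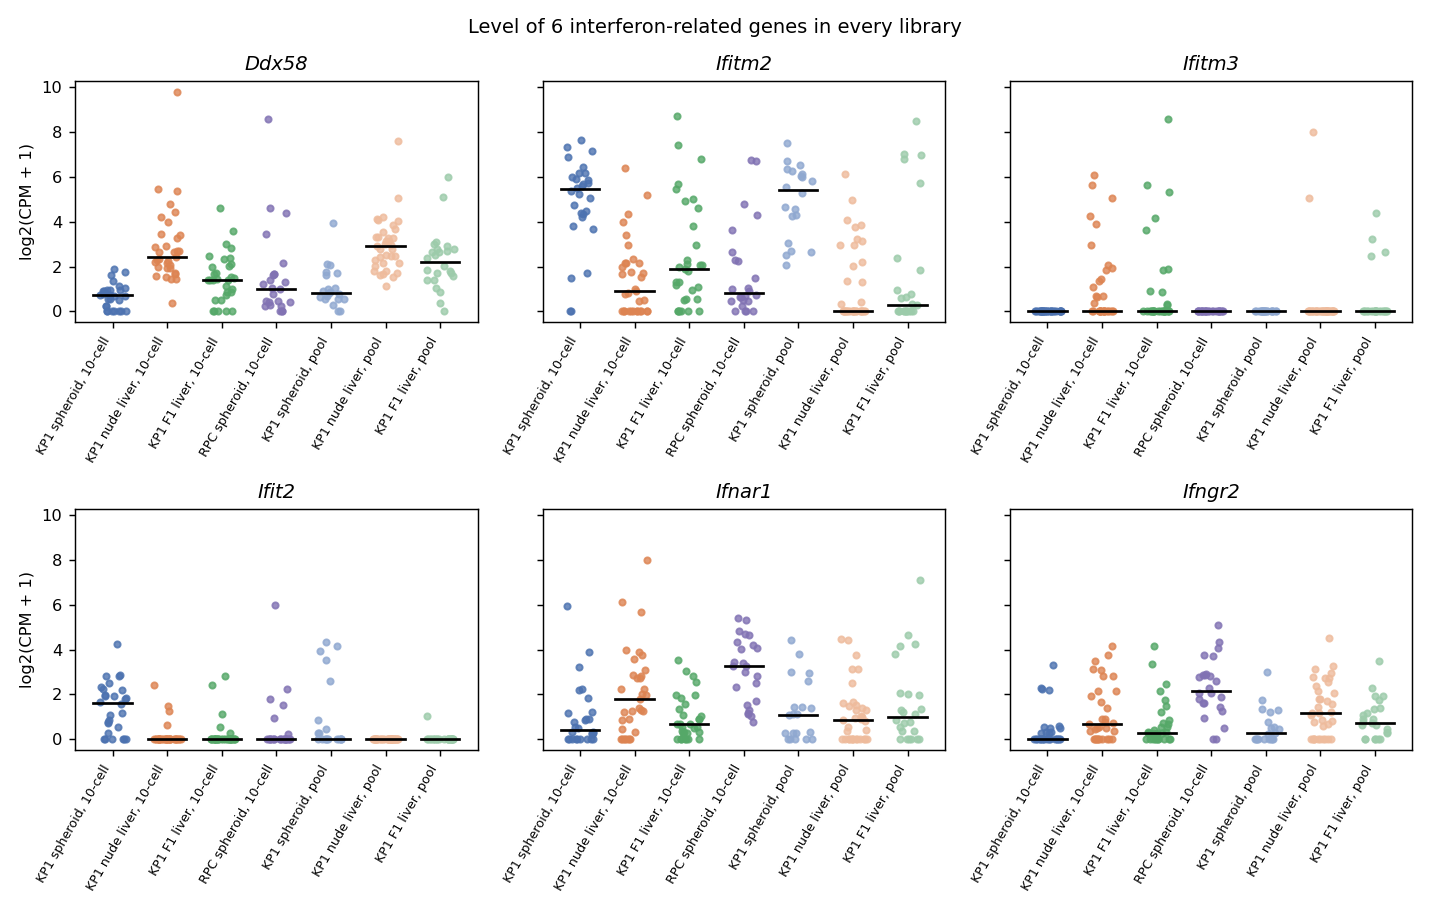
Level of 6 genes in every small library as log2(CPM + 1), with groups on the horizontal axis, 1 point per library (jittered sideways) and the group median as a bar. Ddx58 rises from spheroids to nude liver with 1 library at 886 CPM, Ifitm2 falls from spheroids to liver in most libraries, and Ifitm3 is at 0 in all spheroid libraries.

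Ifitm2 and Ifitm3, genes of chromosome 7 whose membrane proteins block virus entry, went in opposite directions between spheroids and nude liver. Ifitm2, at chr7:140954837-140955987, had a lowest, median and highest level of 0, 42.7 and 198 CPM in KP1 spheroids, 0, 0.907 and 83.8 CPM in nude liver, 0, 2.77 and 424 CPM in F1 liver and 0, 0.765 and 109 CPM in RPC spheroids. Most KP1 spheroid libraries lay above most libraries of the other groups, and the F1 library at 424 CPM exceeded every spheroid library. Nude liver was lower than spheroids by -3.24 (SE 0.67, edgeR adjusted p = 7.71e-05), and nude liver pools were lower by -2.99 (SE 0.79, adjusted p = 0.00272). RPC spheroids were lower than KP1 spheroids by -2.32 (SE 0.71, edgeR adjusted p = 0.013). With only the spheroid libraries that hold at least 0.1% ERCC counts, the differences were -2.57 for RPC (edgeR adjusted p = 0.0503) and -2.08 for the nude liver pools (edgeR adjusted p = 0.364). Detection at equal depth also called Ifitm2 lower in nude liver and in RPC than in KP1 spheroids. Both detection calls were lost without thinning (Fisher's exact test, adjusted p = 0.0726 for nude liver and 0.818 for RPC).

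For F1 liver the edgeR and limma-voom results for Ifitm2 differed, and the cause was not tested. The mean was 30.1 CPM ± 81.8 (SD, n = 31) in F1 and 52.5 ± 49.9 (SD, n = 28) in spheroids, and the edgeR difference was -0.69 (SE 0.68, adjusted p = 0.558). With limma-voom, which works on the log scale, it was -2.83 (adjusted p = 0.0027). In these 10-cell libraries the replicate block and detection with at least 3 counts also called Ifitm2 lower in F1 liver. The other alternatives and the main detection test gave no call. In pools edgeR gave 0.00 (SE 0.95, adjusted p = 0.998) and limma-voom -4.09 (adjusted p = 0.000132), with medians of 42.0 CPM in spheroid and 0.241 CPM in F1 pools. F1 liver was higher than nude liver by 2.54 (SE 0.80, edgeR adjusted p = 0.017), and by 1.54 with limma-voom (adjusted p = 0.099). Without the F1 library at 424 CPM that difference was 1.87 (SE 0.76, edgeR adjusted p = 0.0753). Within F1 libraries high in Rpl19-ps11 it was 2.72 (edgeR adjusted p = 0.0151) and within those low in it 0.93 (edgeR adjusted p = 0.727). With the hepatocyte score as covariate the nude liver minus spheroid difference was -1.91 (edgeR adjusted p = 0.556) in 10-cell libraries, and in pools the adjusted p was 0.95. Ifitm2 overlaps the annotated gene Gm45717 on the same strand, and reads of the 2 may not be separable.

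Ifitm3, at chr7:141009586-141010770, had no count in any of the 28 KP1 spheroid, 24 RPC spheroid or 20 spheroid pool libraries. It was counted before thinning in 16 of 33 nude liver libraries, with a highest level of 67.6 CPM, and in 11 of 31 F1 liver libraries, with a highest level of 379 CPM. At equal depth it was counted in 12 of 33 nude liver and 9 of 31 F1 liver libraries against 0 of 28 spheroid libraries (Fisher's exact test, adjusted p = 0.00446 and 0.0456). A floor of 3 counts over the whole spheroid group was 0.024 CPM and covers counting error only. The pooled level was 293-fold that floor in nude liver and 704-fold in F1 liver, where 1 library held 75.4% of the sum. Bulk KP1 spheroids, at 0.174 CPM, lay above the floor, so these folds are not minimum differences. In pools Ifitm3 was counted in only 2 of 35 nude liver libraries, with 88.7% of the sum in 1 library. The pooled level there was 140-fold the spheroid pool floor. Ifitm3 was counted in 4 of 24 F1 liver pools, at 45.5-fold that floor. With the 26 F1 libraries high in Rpl19-ps11 alone the F1 call was lost (adjusted p = 0.0996). With at least 3 counts required both calls were lost (Fisher's exact test, adjusted p = 0.0673 for nude and 0.174 for F1). Summed endothelial and stellate genes had medians of 3.01, 33.7 and 26.8 CPM in spheroids, nude liver and F1 liver, and with the macrophage and hepatocyte levels given above their part in the Ifitm3 counts was not tested. In bulk, Ifitm3 was at 0.174 CPM in KP1, 0.0236 in KP2, 0 in KP3 and 7.51 in KP5. Ifitm1 was counted at equal depth in 2 spheroid, 4 nude liver and 0 F1 liver libraries.

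The other restriction factors did not pass a test between hosts at equal depth or with the filter on low counts. Without that filter edgeR called Ifitm1, Mx1 and Mx2 in 10-cell libraries and Mx1 and Mx2 in pools. Rsad2, the antiviral enzyme viperin, was counted at equal depth in 14 of 28 spheroid, 18 of 33 nude liver and 6 of 31 F1 libraries, and F1 against nude liver gave an adjusted p of 0.0674 (Fisher's exact test). It was counted in 21 of 24 RPC libraries, with a median of 9.04 CPM against 0.605 CPM in KP1 spheroids (mean difference 1.92, SE 0.77, edgeR adjusted p = 0.0642, and 0.018 with DESeq2). Mx1, Mx2 and Bst2 were each counted at equal depth in at most 8 libraries of any 10-cell group.

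Of the induced GTPases, which act against intracellular pathogens, Igtp was counted at equal depth in 9 of 28 spheroid and 0 of 33 nude liver libraries (Fisher's exact test, adjusted p = 0.00668, and 0.149 with at least 3 counts required), and in 2 of 31 F1 libraries (adjusted p = 0.157). Igtp lies within a stretch shared with the annotated gene Irgm2 on the same strand, so its counts are uncertain. Gbp2 had no count in any 10-cell library except 1 of F1 liver, Gbp3 was counted at equal depth in 0, 1 and 0 libraries of KP1 spheroids, nude liver and F1 liver, Gbp7 in 4, 6 and 4 and Irgm1 in 2, 5 and 0.

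The chemokines and the checkpoint ligand gave no call at equal depth. Cxcl9, which attracts activated T cells, was counted at equal depth in 0 of 28 spheroid, 5 of 33 nude liver and 1 of 31 F1 10-cell libraries. Its highest level was 1594 CPM in a single F1 pool, 84.5% of that group's sum. Cxcl10 was counted in 6, 1 and 1 of the 10-cell libraries. Cd274, which encodes the T-cell inhibitory ligand PD-L1, was counted before thinning in 5 of 28, 21 of 33 and 3 of 31, and at equal depth in 2, 11 and 2 (F1 against nude liver, Fisher's exact test, adjusted p = 0.11). Without thinning Cd274 was called in that comparison (-54.0 percentage points, Fisher's exact test, adjusted p = 0.00154) and for nude liver against spheroids (45.8 points, adjusted p = 0.00894).

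Ifi27, a mitochondrial protein gene, had the highest mean of the list in all 4 of the 10-cell groups and did not pass the test between environments. Its medians were 76.0, 82.7 and 72.3 CPM in KP1 spheroids, nude liver and F1 liver and 17.3 CPM in RPC spheroids, with means of 86.8 ± 51.1 (SD, n = 28), 102 ± 117 (SD, n = 33), 125 ± 159 (SD, n = 31) and 39.3 ± 52.7 (SD, n = 24). RPC against KP1 spheroids gave -1.22 (SE 0.47, edgeR adjusted p = 0.0526, and 0.0369 with DESeq2). Ifi35 had medians of 3.54, 4.02, 0.255 and 7.52 CPM in the same order.

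Read against all genes, the share of listed genes called lay below that of all genes in 5 of 7 comparisons of mean level and above it in 3 of 4 of detection. In the tests of mean level in 10-cell libraries, 2 of 8 tested genes were called for nude liver against spheroids, where 34.1% of all genes tested were called. For F1 liver against spheroids 0 of 7 were called against 12.6% of all genes; 1 had an unadjusted p under 0.05 and DESeq2 called 1, Eif2ak2. For F1 against nude liver 2 of 8 were called against 19.2%, and for RPC against KP1 spheroids 2 of 11 against 21.9%. In pools the counts were 2 of 10 against 25.6% for nude liver and spheroids and 1 of 7 against 11.6% for F1 liver and spheroids. For F1 and nude liver pools edgeR called 0 of 4 against 12% of all genes; 1 had an unadjusted p under 0.05, and DESeq2 called 1, Eif2ak2. The tested genes are those that passed a filter on low counts, so the other members are described by detection alone. Without that filter 19 of 41 were called for nude liver against spheroids in 10-cell libraries, where 42% of all genes were called.

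In detection at equal depth, 7 of 38 genes were called for nude liver against spheroids, 4 higher and 3 lower, against 14.2% of all genes tested. For F1 liver against spheroids 2 of 30 were called against 4.79%, for F1 against nude liver 1 of 35 against 6.1%, and for RPC against KP1 spheroids 4 of 31 against 9.11%. The median difference in detection between F1 and nude liver was -9.09 percentage points over the 35 listed genes and -5.87 over all 15117 genes tested. These comparisons share the spheroid and liver libraries, so they are not independent.

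**Figure D4:**
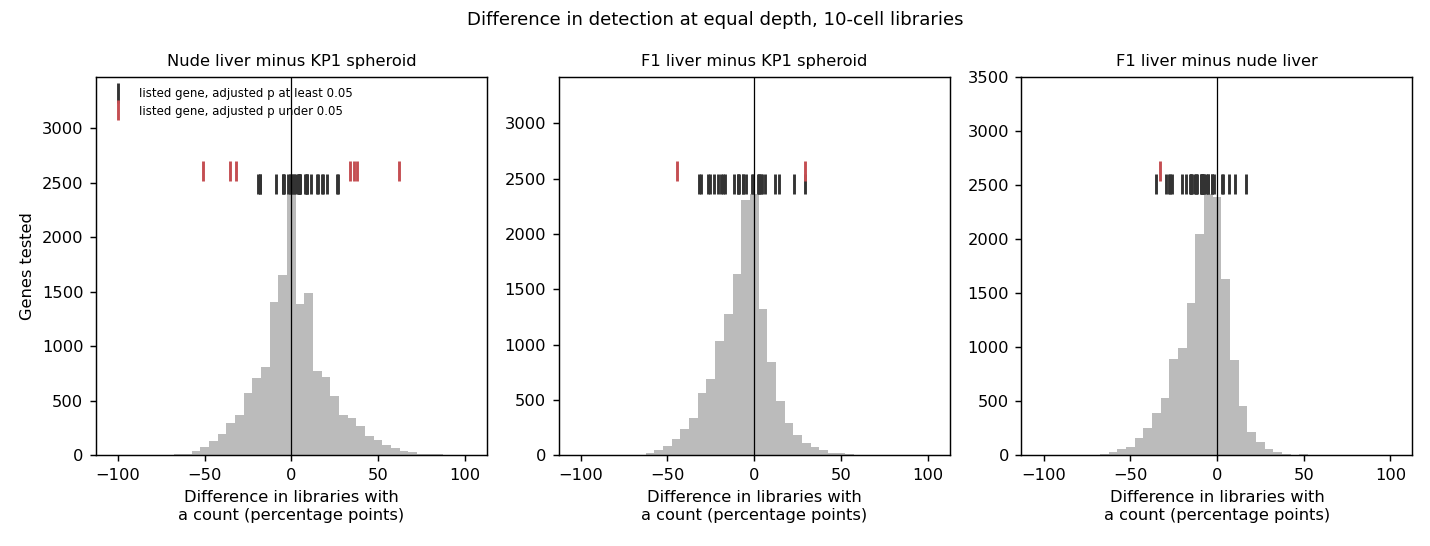
Difference in the share of 10-cell libraries with a count after thinning, in percentage points, for all genes tested (grey histogram, bins of 5 points) and for the listed genes (ticks above, red where the adjusted p was under 0.05). The listed genes spread across the range of all genes, and in the right panel most lie below 0 as do most genes.

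The spread between 10-cell captures was compared with that between pools by limma on the absolute deviations of log2(CPM + 1) from the group median. None of the 11 genes tested in spheroids was called, where 0% of all genes were, none of 17 in nude liver against 0.777%, and none of 11 in F1 liver against 1.48%. Unadjusted p under 0.05 was found for 0, 2 and 1 of them, and deviations from the group mean in place of the median called 3 of 11 in F1 liver, Cxcl9, Ifih1 and Ifnar2, against 12.5% of all genes.

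Of 91 further pathway genes listed by role, Dtx3l was called in the most comparisons. Dtx3l, a ubiquitin ligase induced by interferon, had medians of 2.12 CPM in spheroids, 21.0 in nude liver and 8.03 in F1 liver. It was higher in nude liver by 3.32 (SE 0.53, edgeR adjusted p = 6.1e-07) and in F1 liver by 2.22 (SE 0.55, adjusted p = 0.00347) than in KP1 spheroids. Cultured RPC spheroids were also higher in Dtx3l than KP1 spheroids, by 2.24 (SE 0.62, edgeR adjusted p = 0.00546). In nude liver against spheroids 19 of the 91 were tested for mean level, of which 1 rose and 3 fell, Jak1, Ifi30 and Cmpk2, against 34.1% of all genes called. In F1 liver against spheroids 17 were tested and 2 rose, Dtx3l and Ly6e, against 12.6% of all genes called. In RPC against KP1 spheroids 3 of 20 rose and 4 fell, against 21.9% of all genes called. In pools 4 of 19 rose for nude liver against spheroids (25.6% of all genes called), 2 of 16 rose and 1 fell for F1 liver against spheroids (11.6%), and 1 of 12 rose and 1 fell for F1 against nude liver (12%). Between F1 and nude liver 10-cell libraries, where 19.2% of all genes were called, 15 were tested and Ifi30, a lysosomal thiol reductase, was higher in F1 by 2.89 (SE 0.76, edgeR adjusted p = 0.0038). In detection, where 14.2% of all genes were called, 7 of 58 tested rose and 1 fell in nude liver against spheroids, among them the DNA sensor Ifi204 in 21 of 33 against 1 of 28 libraries (Fisher's exact test, adjusted p = 4.93e-05). In F1 liver against spheroids 2 of 54 rose and 1 fell (4.79% of all genes called), and in RPC against KP1 spheroids 3 of 50 rose (9.11%). Between F1 and nude liver 1 of 60 was called, against 6.1% of all genes, the DNA exonuclease Trex1, in 10 of 31 F1 against 25 of 33 nude liver libraries (Fisher's exact test, adjusted p = 0.0249).

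Whether the host difference itself depended on the kind of library was tested as an interaction over the 4 liver groups, in which the split pools stand as replicates and so bring splitting noise alone to their side of the test. Of 14 listed genes tested 4 were called, against 5.27% of all genes. Ifnar1 differed by -5.25 (SE 1.12, edgeR adjusted p = 0.00157): its medians were 2.55 CPM in nude and 0.594 in F1 10-cell libraries and 0.816 and 1.03 CPM in the pools. Its highest libraries were at 257 CPM among nude 10-cell captures and at 136 CPM among F1 pools. Ifnar2 differed by 9.21 (SE 1.59, adjusted p = 4.97e-05), with a library at 331 CPM among F1 10-cell captures and one at 1106 CPM among nude pools. Irf9 (4.18, SE 1.20, adjusted p = 0.0244) and Ddx58 (-2.72, SE 0.84, adjusted p = 0.0364) were no longer called without a single library each, the nude pool at 1587 CPM (adjusted p = 0.98) and the nude 10-cell library at 886 CPM (adjusted p = 0.734). The Ddx58 call was also lost with only the F1 libraries high in Rpl19-ps11 (-2.23, edgeR adjusted p = 0.0986), where 3 of 15 listed genes were called against 6.24% of all genes.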

How the data were processed

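The deposited table holds expected counts, estimated per gene for 199 libraries, of which 10.7% are not whole; per the submitters' processing notes Bowtie2, RSEM and the builds GRCm38 and GRCh38.p12 were used, with no versions and no strand setting given. The table has 31581 genes and 92 ERCC spike-in rows, which were left out of library totals. The members and gene lists were chosen with earlier results of these data known.

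Expected counts were rounded and tested with edgeR 4.0.16 (quasi-likelihood, TMM scaling, its default filter on low counts) in R 4.3.3, on the groups compared, with Benjamini-Hochberg adjustment over all genes tested and a threshold of 0.05. CPM values are over gene rows. For detection, each library was thinned at random to 718149 gene counts, and genes counted in at least 3 libraries were compared by two-sided Fisher's exact tests. Spread was tested with limma 3.58.1 on log2(CPM + 1), keeping genes whose mean reached 5 CPM. Each procedure was tested on simulated data. Alternatives were DESeq2 1.42.0, limma-voom, other scalings and filters, a replicate block, a hepatocyte covariate, and splits by Rpl19-ps11 at 120 CPM and by ERCC at 0.1%; leaving out the highest library of a gene was chosen after seeing the data. Members called in a comparison of means, or averaging 20 CPM or more in a 10-cell group, were to be given with full values and the others by counts of libraries and ranges. Counting without strand cannot separate a gene from an overlapping antisense gene, and 19 of the 43 overlap another annotated gene, 13 of them on the opposite strand. Promoters are from RefSeq, GRCm38.p6. PCR copies are not independent molecules, so floors cover counting error only.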

Additional observations from a re-analysis of the deposited data

Results flagged for a closer look

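The difference between F1 and nude liver differed between 10-cell libraries and pools for 4 genes by edgeR's quasi-likelihood interaction test. On the log2 scale the 10-cell difference minus the pool difference was 9.21 for Ifnar2, -5.25 for Ifnar1, 4.18 for Irf9 and -2.72 for Ddx58. Without the library highest in each gene it was 8.10 for Ifnar2 (adjusted p = 0.000229), -3.95 for Ifnar1 (adjusted p = 0.0137), 0.07 for Irf9 (adjusted p = 0.98) and -0.55 for Ddx58 (adjusted p = 0.734). Only the highest library was left out each time. An F1 pool at 136 CPM stayed in for Ifnar1, and the high F1 10-cell library named above for Ifnar2. At equal depth Ifnar2 was counted in a smaller share of F1 than of nude liver 10-cell libraries, as given above. A single nude pool held 93.3% of the summed Irf9 level of its group. Ifnar2 shares 13869 annotated bases with Gm21970 on the same strand.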

How the results depend on the processing

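Of the alternatives for called listed genes, 123 kept the call and 33 lost it; for uncalled ones 949 stayed uncalled, 45 gained a call and 3 turned direction. The cause of these changes was not tested unless stated. Numbers below are listed genes called, of those tested, with the percentage of all tested genes called in brackets. With no filter on low counts they were 19 of 41 (42%) for nude liver against spheroids, 14 of 40 (26.7%) for F1 liver against spheroids, 15 of 42 (31.7%) for F1 against nude liver and 19 of 40 (31.5%) for RPC against KP1 spheroids. In pools they were then 21 of 42 (39.3%), 17 of 40 (28.3%) and 19 of 42 (29.5%) for the same 3 KP1 comparisons, and 14 of 42 (15%) for the interaction. With DESeq2 they were 1 of 7 (19.4%) for F1 liver against spheroids, 6 of 11 (28.8%) for RPC and 1 of 4 (18.1%) for F1 against nude pools. With limma-voom they were 1 of 7 (23.8%) for F1 liver against spheroids, 1 of 8 (24.8%) for F1 against nude liver, 6 of 11 (35.8%) for RPC, 2 of 7 (46.1%) for F1 against spheroid pools and 1 of 4 (13.7%) for F1 against nude pools. RLE scaling gave 4 of 11 (22.8%) for RPC. Of the RPC genes, Eif2ak2, Ifi27, Ifnar1 and Rsad2 gained a call with DESeq2, limma-voom and the replicate block. So did Ifnar1 and Rsad2 with RLE, Ifi27 with TMMwsp scaling and with no filter, Ifnar1 with spheroids of at least 0.1% ERCC, and Eif2ak2 with spheroids under 0.1% ERCC and in detection with at least 3 counts. With the hepatocyte covariate they were 0 of 8 (11.9%) for nude liver against spheroids, 1 of 10 (10.9%), Ifnar2, in its pools and 1 of 8 (14.2%) for F1 against nude liver. With spheroid libraries of at least 0.1% ERCC they were 4 of 14 (19.4%) for nude liver against spheroids, 0 of 17 (8.17%) in its pools and 0 of 10 (0.262%) for F1 against spheroid pools, and with those under 0.1% 4 of 11 (21.9%) for nude liver against spheroid pools. With F1 libraries low in Rpl19-ps11 they were 0 of 19 (2.07%) for F1 against nude liver and 2 of 16 (18.8%) for F1 against spheroid pools; with those high in it, detection gave 1 of 28 (5.35%) for F1 against spheroids and 0 of 35 (5.05%) for F1 against nude liver. Detection with at least 3 counts gave 3 of 28 (15.9%) for nude liver against spheroids and 0 of 29 (6.49%) for F1 against nude liver. Without thinning it gave 2 of 38 (3.19%) for the latter, Cd274 and Usp18, with Ddx58 lost, and Cd274, Irf7 and Oas1a gained a call for nude liver against spheroids. Deviations from the mean gave 3 of 11 (12.5%) for spread in F1 liver.

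Most same-numbered libraries did not deviate together (median correlation per comparison from -0.019 to 0.005), and the main tests did not treat them as pairs. The highest correlation of a pair was 0.405, in RPC against KP1 spheroids. The replicate block, which also left out libraries with no same-numbered partner, so that the 2 changes were not told apart, called 1 of 6 (13%) for F1 liver against spheroids, 0 of 6 (13.2%) for F1 against nude liver, 5 of 10 (24.1%) for RPC and 3 of 6 (27.1%) for F1 against spheroid pools, where it turned Stat2 to -4.00 (edgeR adjusted p = 0.0296) and Ifitm2 to -5.63 (adjusted p = 0.00249); limma-voom gave Ifitm2 -4.09 there. Ifngr2 in RPC was under the filter, and could not be fitted, without its highest library and with the block. For genes counted in few libraries, the lack of a call does not show that a difference was absent, and the part of depth was not tested.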
